A study of Mus musculus with 18 samples.

Results

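The genes described here belong to the antiviral arm of the interferon response: Ifit1, Ifit2, Ifit3, Rsad2, Bst2, Ifitm3, Ifi44, Ifi35 and Ifi27. They are 9 of the 35275 mouse genes listed for the 18 RNA-seq libraries of the series, chosen by name, and all 9 were detected well enough to be tested. The names were selected on measured values: interferon genes had been seen among the largest changes of control cells on differentiation and of MUNC genomic cells against control. Their values in those comparisons, in both media, are therefore a description, without a p-value. Other comparisons that reuse control or MUNC genomic libraries are not independent of this choice, and their p-values do not allow for it.

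The libraries came from C2C12, a mouse myoblast line that fuses into myotubes when serum is lowered, and the labels call this stock PAX7 negative. The 3 lines were a wild-type control, a line overexpressing MUNC in spliced form (MUNC spliced) and a line overexpressing the genomic, unspliced transcript (MUNC genomic). MUNC is a long noncoding RNA whose gene lies upstream of Myod1. Each line was sampled in growth medium with 20% fetal bovine serum at about 80% confluency (GM) and after 3 days in 2% horse serum (DM3), with 3 biological replicates in each of the 6 groups. The labels do not say whether an overexpressing line is 1 clone or a pool, or what the control cells carry, so a difference between lines and a difference between clones cannot be told apart.

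Values are given as FPM, fragments scaled for library size and not divided by gene length, so levels are compared between groups and not between genes. Libraries held 38416702 to 68788327 reads, and 3 reads correspond to 0.0429 to 0.0757 FPM. Differences are differences in the mean of log2(FPM + 1), which understates the change of genes near 0, and a gene is called where limma's adjusted p over the 13869 genes tested is under 0.05. All 8 muscle markers had reads in every group, and Pax7 was at most 0.147 FPM. Myod1 was at most 0.221 FPM in the 6 control libraries against 1.66 to 53.3 FPM in the 12 MUNC libraries. Of the 7 tested, 3 were called higher on differentiation in control, 4 in MUNC spliced and 5 in MUNC genomic cells, with 1 lower in each. Over all genes, 29.6%, 17.2% and 26.3% were called higher and 28.6%, 18.4% and 25.1% lower. The largest rise of a muscle marker was 1.68, 3.95 and 3.23 in the same order. How far each line differentiated was not tested. The 7 leukocyte and macrophage markers summed to 2.40 to 6.36 FPM, the highest single gene reached 5.41 FPM, and Adgre1 had 0 reads in 5 of the 6 groups. Of these markers 2 were tested. Against control in DM3, 1 was called higher and 1 lower in MUNC spliced (0.86 and -1.15) and in MUNC genomic cells (1.24 and -0.97). Over all genes tested, 6001 and 5586 were called in either direction. The plasmacytoid dendritic cell marker Siglech had 0 reads in all 18 libraries (sum of its 4-gene list at most 0.101 FPM), as had Cd3e among 3 lymphocyte markers (sum at most 0.0301 FPM). The 4 endothelial markers summed to 0.2496 to 0.743 FPM in control, 0.880 to 1.72 FPM in MUNC spliced and 4.01 to 7.62 FPM in MUNC genomic libraries, where Cdh5 made up most of the sum. The 4 fibroblast markers, mostly Col1a1, summed to 1909.95 to 2897 FPM, 2875 to 5909 FPM and 787 to 2178 FPM in the same order, and the part of these markers in the differences between lines was not tested. In bulk RNA, fewer cells expressing a gene and less RNA per cell cannot be told apart.

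Interferons are secreted when a cell senses viral RNA or DNA, and type I interferons bind the receptor IFNAR1 and IFNAR2 on the same and on neighbouring cells. The kinases JAK1 and TYK2 then activate transcription factors, among them STAT2 and IRF9, that bind interferon-stimulated response elements (ISREs) in target promoters. The genes described here are such targets and act on different steps of infection. IFIT1 binds RNA that lacks host cap methylation, and viperin (Rsad2) makes a chain-terminating nucleotide. Tetherin (Bst2) holds budding virions at the membrane, and IFITM3 blocks fusion in endosomes. In muscle, the same genes are known for their expression in inflammatory myopathies.

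RefSeq start sites of build GRCm38.p6 gave 300-base windows, from 250 bases before the start to 50 bases from it on, for 8 of the 9 genes, all but Ifi27. The ISRE core searched was GAAA, any 2 bases and GAAA again, and the core of the gamma-activated site (GAS), another interferon-responsive element, was TTCNNNGAA, both on either strand and with overlaps allowed. The ISRE core was present for 5 of the 8 genes (Ifit1, Ifit3, Rsad2, Bst2 and Ifitm3), against 3.99% of the 27025 genes with a window. The GAS core was present for 4 of the 8 (Bst2, Ifitm3, Ifi35 and Ifit2), against 9.55% of genes. These windows are shown because the proportions of the neighbouring Ifit1, Ifit3 and Ifit2 differed between the lines, and because Rsad2 differed most between control and MUNC spliced DM3. They are written in the direction of the gene, with matches to the ISRE core on either strand in capitals.
Ifit1, chr19:34640639-34640938, plus strand: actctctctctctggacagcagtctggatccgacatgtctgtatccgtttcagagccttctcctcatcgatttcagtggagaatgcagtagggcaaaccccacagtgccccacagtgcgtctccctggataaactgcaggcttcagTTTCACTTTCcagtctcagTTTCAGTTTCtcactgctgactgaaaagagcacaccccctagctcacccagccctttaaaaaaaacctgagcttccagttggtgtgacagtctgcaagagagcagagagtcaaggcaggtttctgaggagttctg
Ifit3, chr19:34583279-34583578, plus strand: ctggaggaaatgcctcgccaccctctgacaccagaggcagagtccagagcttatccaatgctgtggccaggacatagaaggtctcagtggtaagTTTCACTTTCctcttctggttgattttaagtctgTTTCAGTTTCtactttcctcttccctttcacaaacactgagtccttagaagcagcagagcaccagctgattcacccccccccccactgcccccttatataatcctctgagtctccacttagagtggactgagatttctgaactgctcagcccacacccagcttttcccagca
Ifit2 first start, chr19:34550444-34550743, plus strand: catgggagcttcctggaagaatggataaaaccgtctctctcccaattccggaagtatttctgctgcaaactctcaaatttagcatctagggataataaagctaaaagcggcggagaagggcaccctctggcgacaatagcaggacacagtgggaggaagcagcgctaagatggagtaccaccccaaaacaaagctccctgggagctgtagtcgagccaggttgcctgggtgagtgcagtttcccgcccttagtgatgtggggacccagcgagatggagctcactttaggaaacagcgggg
Ifit2 second start, chr19:34550838-34551137, plus strand: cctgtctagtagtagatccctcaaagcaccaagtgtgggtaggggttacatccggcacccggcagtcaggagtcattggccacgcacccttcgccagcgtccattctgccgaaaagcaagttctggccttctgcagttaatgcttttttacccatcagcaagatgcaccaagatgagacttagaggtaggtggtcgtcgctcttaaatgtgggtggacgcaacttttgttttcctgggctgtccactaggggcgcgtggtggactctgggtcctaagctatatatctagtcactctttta
Rsad2, chr12:26456403-26456702, minus strand: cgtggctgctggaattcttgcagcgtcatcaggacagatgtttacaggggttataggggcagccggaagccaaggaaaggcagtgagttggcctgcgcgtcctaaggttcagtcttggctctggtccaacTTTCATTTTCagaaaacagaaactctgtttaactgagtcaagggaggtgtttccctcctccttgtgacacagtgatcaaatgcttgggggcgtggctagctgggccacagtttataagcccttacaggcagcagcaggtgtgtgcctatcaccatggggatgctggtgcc

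Counted from the start site as position 0, the cores lay at -104 and -85 in Ifit1, at -156 and -122 in Ifit3, and at -120 in Rsad2 (first base of each). Bst2 had a pair that overlapped, at -130 and -124, and Ifitm3 had its pair just after the start, at 2 and 19. Neither Ifit2 window held these letters, nor did the Ifi44 and Ifi35 windows. A match is a description of letters and not of a measured binding site. An absent match covers only these letters in these windows, and variants of the element were not searched. The part of these letters in the differences between lines was not tested.

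**Figure D1:**
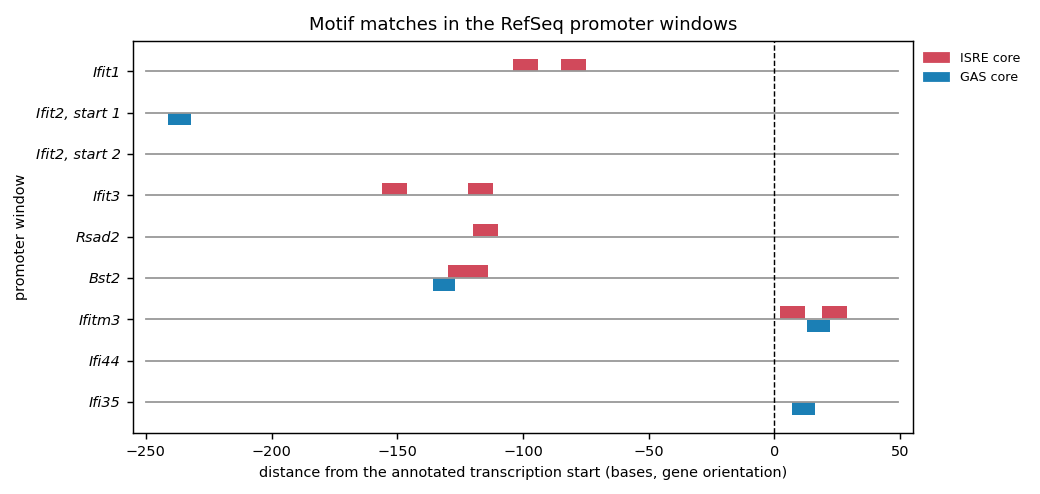
Positions of the ISRE core (red, above each line) and the GAS core (blue, below each line) in the 9 RefSeq promoter windows of 8 genes; the x axis is the distance in bases from the annotated start site, drawn as a dashed line. Ifit1, Ifit3, Rsad2 and Bst2 carry ISRE cores between 156 and 76 bases before the start, and the Ifit2 windows carry none.

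Across the 6 groups, 8 of the 9 genes had the same outline. Each had its highest mean in control DM3 and the next highest in MUNC spliced DM3. In 7 of the 8 the MUNC genomic DM3 mean lay below even the control GM mean, Ifitm3 being the exception. Ifi27 departed from this outline, with its highest mean in MUNC genomic DM3. Over the 18 libraries, each of the 8 followed the mean of the other members with a Pearson r of 0.910 to 0.978, and Ifi27 with 0.123; libraries share groups, so this is a description.

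**Figure D2:**
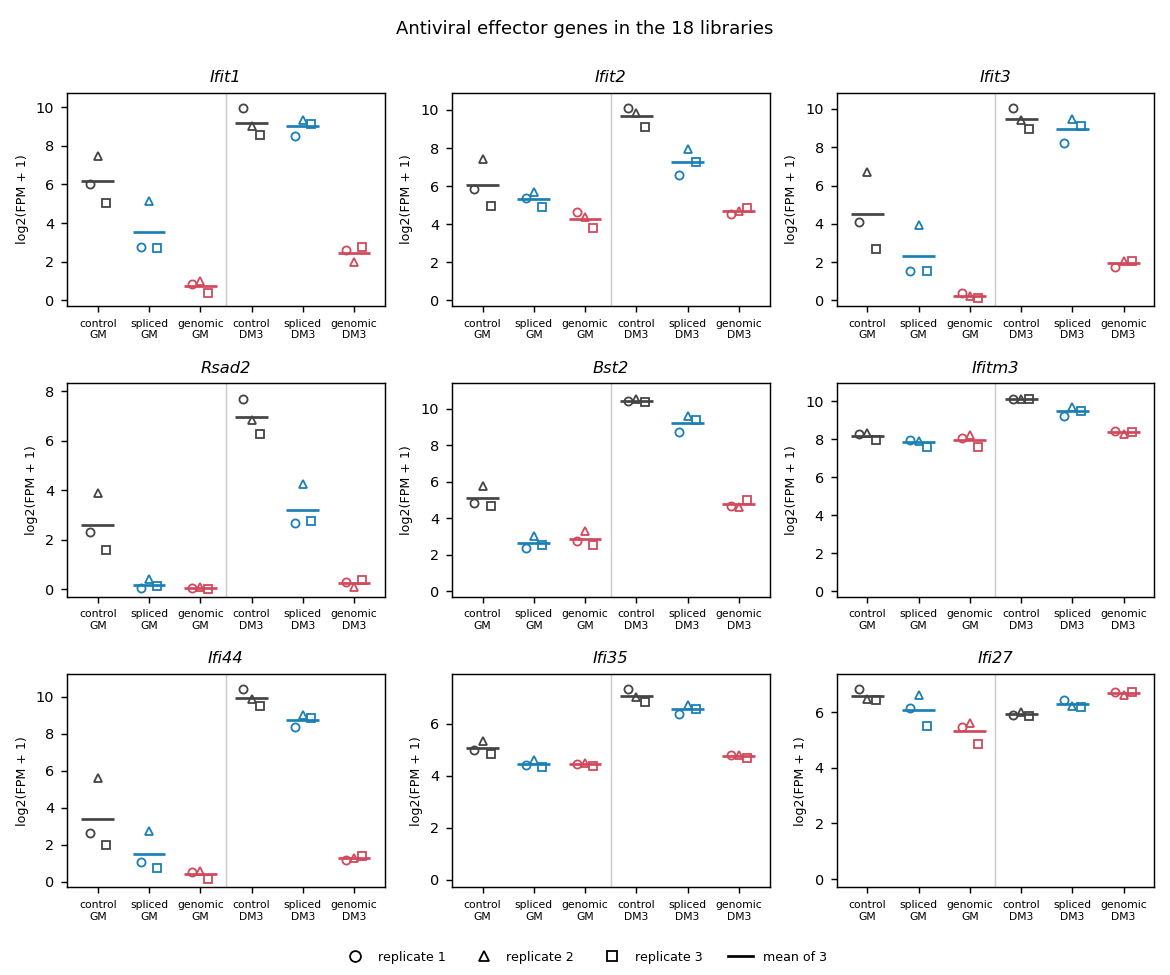
Each panel shows 1 gene; the y axis is log2(FPM + 1), points are the 18 libraries by group (circles, triangles and squares are replicates 1, 2 and 3) and bars are means of 3. Control DM3 stands high and MUNC genomic DM3 low in every panel but that of Ifi27, where MUNC genomic DM3 is the highest DM3 group.

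Ifit1 (chromosome 19, 34640871 to 34650009, plus strand) encodes the member of the family that binds RNA with an incompletely methylated cap. In GM it measured 63.9, 174 and 31.4 FPM in control replicates 1, 2 and 3, 5.86, 34.6 and 5.48 FPM in MUNC spliced and 0.787, 0.996 and 0.294 FPM in MUNC genomic cells. In DM3 it measured 986, 527 and 382 FPM in control, 368, 650.2 and 567 FPM in MUNC spliced and 5.10, 3.01 and 5.78 FPM in MUNC genomic cells. Control and MUNC spliced DM3 overlapped, whereas every MUNC genomic DM3 library lay below every control GM library. Against control in DM3, Ifit1 differed by -0.18 in MUNC spliced cells (95% interval -1.46 to 1.10, limma adjusted p 0.833), and this difference ran from -0.49 to 0.20 when 1 library was left out, above 0 without control DM3 replicate 1 (0.20) or MUNC spliced DM3 replicate 1 (0.06). In GM, MUNC spliced cells were lower than control, with a difference of -2.62 (SE 0.60, limma adjusted p 0.00320) and overlapping libraries. The MUNC genomic difference from control in GM was -5.43, with no overlap.

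Ifit3 (chromosome 19, 34583531 to 34588731, plus strand) encodes an IFIT protein whose human counterpart stabilises IFIT1 on RNA. Its GM values were 15.9, 104 and 5.38 FPM in control, 1.92, 14.4 and 1.86 FPM in MUNC spliced and 0.315, 0.152 and 0.0840 FPM in MUNC genomic cells. Its DM3 values were 1056, 696 and 499.7 FPM in control, 295, 716 and 555 FPM in MUNC spliced and 2.31, 3.13 and 3.10 FPM in MUNC genomic cells. MUNC spliced DM3 again overlapped control DM3 (-0.55, 95% interval -2.15 to 1.06, limma adjusted p 0.588). On differentiation Ifit3 rose by 6.60 in MUNC spliced cells (SE 0.76, limma adjusted p 1.22e-05), a ratio of means of 86.2, or 277 without MUNC spliced GM replicate 2. The MUNC genomic rise of 1.70 was not called (limma adjusted p 0.0716), although its 3 DM3 libraries lay above its 3 GM libraries; it was called with a pseudocount of 0.1 (3.45) and by edgeR (3.84) and DESeq2 (3.96) on recovered reads. In GM, MUNC spliced cells were lower than control, with a difference of -2.15 (limma adjusted p 0.0364), but the libraries overlapped and the call was lost without control GM replicate 2 (-1.04), without control GM replicate 1 (-2.36) or MUNC spliced GM replicate 1 (-1.76) or 3 (-1.74), without the filter on low values, and with the compared groups alone.

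Ifit2 (chromosome 19, 34550694 to 34576419, plus strand) encodes an IFIT protein that prefers AU-rich RNA. GM libraries held 55.9, 171 and 30.3 FPM in control, 39.9, 49.8 and 29.2 FPM in MUNC spliced and 23.7, 20.1 and 12.7 FPM in MUNC genomic cells. DM3 libraries held 1094, 922 and 549 FPM in control, 96.4, 247 and 155 FPM in MUNC spliced and 22.3, 24.8 and 27.7 FPM in MUNC genomic cells. For this gene MUNC spliced DM3 lay below control DM3 with no overlap of libraries (-2.40, SE 0.47, limma adjusted p 0.000653). The mean in MUNC genomic GM, 18.9 ± 5.63 FPM (SD, n = 3), was 4.55 times below control GM, beside 129.8 times for Ifit1 and 227 times for Ifit3. Without control GM replicate 2 these ratios were 2.28, 68.8 and 58.0, and that of Ifit3 was 353 without MUNC genomic GM replicate 1. In MUNC genomic cells Ifit2 differed by 0.42 between DM3 and GM (95% interval -0.57 to 1.42, limma adjusted p 0.480). In GM the MUNC genomic difference from control was -1.81, and the MUNC spliced difference of -0.76 was not called (limma adjusted p 0.222).

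The 3 Ifit genes lie within 99.3 kb of chromosome 19, with Ifit3b, Ifit1bl1 and Ifit1bl2 between them, and their proportions differed by line. The ratio of Ifit1 to Ifit2, whose baseline also holds the gene lengths, was 0.571 to 0.901 in control DM3, 2.63 to 3.82 in MUNC spliced DM3 and 0.122 to 0.229 in MUNC genomic DM3. The ratio of Ifit3 to Ifit2 was 0.755 to 0.965, 2.89 to 3.57 and 0.104 to 0.126 in the same groups. So in DM3 the lines did not overlap in either ratio, MUNC spliced lying above and MUNC genomic below control. In GM both MUNC lines lay below control in Ifit1 over Ifit2, at 1.02 to 1.14 in control, 0.147 to 0.695 in MUNC spliced and 0.0231 to 0.0495 in MUNC genomic. The ratio of Ifit3 to Ifit2 in GM overlapped between control (0.178 to 0.604) and MUNC spliced (0.0481 to 0.289), with MUNC genomic below both (0.00661 to 0.0133). The ratio of Ifit3 to Ifit1 moved less between control DM3 (1.07 to 1.32) and MUNC spliced DM3 (0.802 to 1.10). In MUNC genomic DM3 it was 0.453 to 1.04, below control without overlap. In GM it overlapped between the lines, at 0.171 to 0.595 in control, 0.328 to 0.416 in MUNC spliced and 0.153 to 0.400 in MUNC genomic. These ratios were chosen after the values had been seen and carry no test.

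**Figure D3:**
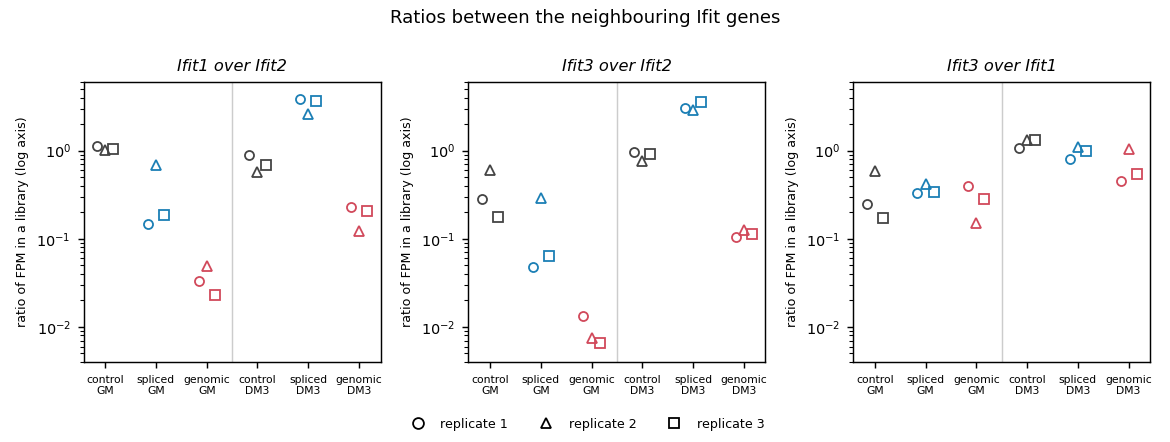
The y axes, on a log scale, give the ratio of FPM between 2 neighbouring Ifit genes in each library, by group; circles, triangles and squares are replicates 1, 2 and 3. In DM3 the ratios over Ifit2 form 3 separate levels, with MUNC spliced at 2.63 to 3.82 for Ifit1 over Ifit2 and MUNC genomic at 0.122 to 0.229.

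Rsad2 (chromosome 12, 26442746 to 26456452, minus strand), which encodes viperin, had few reads in the MUNC lines outside MUNC spliced DM3. Growth medium gave 4.01, 13.9 and 2.03 FPM in control, but only 1, 18 and 5 reads in the MUNC spliced and 2, 4 and 0 reads in the MUNC genomic libraries. Differentiation medium gave 207, 114 and 76.7 FPM in control, 5.33, 17.8 and 5.68 FPM in MUNC spliced and 0.237, 0.0753 and 0.312 FPM in MUNC genomic cells, the last resting on 12, 5 and 16 reads. No library of either MUNC line reached the control range in its medium. MUNC spliced cells were lower than control in DM3, with a difference of -3.73 (SE 0.48, limma adjusted p 1.34e-05), a ratio of means of 13.8 (24.1 without MUNC spliced DM3 replicate 2), and lower in GM, with a difference of -2.42 (limma adjusted p 0.00109). Rsad2 still rose in MUNC spliced cells on differentiation (3.02, SE 0.48, limma adjusted p 0.000225). Because 2 of the 3 MUNC spliced GM libraries held 5 reads or fewer, the fitted sizes of changes from them depend on the pseudocount.

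Bst2 (chromosome 8, 71534255 to 71537456, minus strand) encodes tetherin. The GM libraries measured 27.9, 54.0 and 24.4 FPM in control, 4.14, 7.13 and 4.91 FPM in MUNC spliced and 5.78, 8.78 and 4.81 FPM in MUNC genomic cells. The DM3 libraries measured 1383, 1502 and 1331 FPM in control, 429, 782 and 660.5 FPM in MUNC spliced and 24.7, 23.4 and 30.7 FPM in MUNC genomic cells. Within each medium both MUNC lines lay below control with no overlap, and the MUNC lines overlapped each other in GM. Bst2 rose in all 3 lines, with ratios of means of 39.6 in control, 116 in MUNC spliced and 4.06 in MUNC genomic cells. The MUNC spliced rise was 6.60 (SE 0.27, limma adjusted p 2.88e-10) and the MUNC genomic rise 1.90 (SE 0.27, limma adjusted p 3.63e-05). The MUNC spliced rise exceeded that of control by 1.24 in the interaction test (SE 0.39, limma adjusted p 0.0429). Leaving out 1 library at a time ended that call in 9 of 12 fits, where the difference ran from 0.90 to 1.36; it held without control GM replicate 3, MUNC spliced GM replicate 2 or MUNC spliced DM3 replicate 1.

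Ifitm3 (chromosome 7, 141009586 to 141010770, minus strand), the endosomal restriction factor, had overlapping levels in the 3 lines in GM. It measured 309, 315 and 244 FPM in control, 252, 236 and 194 FPM in MUNC spliced and 264, 296 and 193 FPM in MUNC genomic GM. After 3 days of differentiation it reached 1109, 1101 and 1119 FPM in control, 595, 826 and 711 FPM in MUNC spliced and 344, 306 and 331 FPM in MUNC genomic cells. In GM the MUNC spliced difference from control of -0.35 was not called (limma adjusted p 0.0982) and the MUNC genomic one was -0.22, whereas the 3 lines did not overlap in DM3. MUNC spliced DM3 was lower than control, with a difference of -0.66 (SE 0.16, limma adjusted p 0.00309). The MUNC genomic rise of 0.40 was called (limma adjusted p 0.0423), but not in 5 of the 6 fits without 1 of its libraries, where it ran from 0.23 to 0.45; it held without GM replicate 2.

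Ifi44 (chromosome 3, 151730922 to 151749960, minus strand), a GTPase-like protein of the interferon response, had the largest difference between control and MUNC genomic DM3 of the 9. Its levels in GM were 5.31, 47.4 and 2.92 FPM in control, 1.11, 5.83 and 0.649 FPM in MUNC spliced and 0.458, 0.506 and 0.105 FPM in MUNC genomic cells. Its levels in DM3 were 1341, 945 and 709 FPM in control, 331, 506 and 454 FPM in MUNC spliced and 1.29, 1.42 and 1.64 FPM in MUNC genomic cells. Its mean in control DM3 was 690.1 times that in MUNC genomic DM3. All 3 MUNC spliced DM3 libraries were lower than all 3 control ones, yet the difference of -1.19 was not called (95% interval -2.59 to 0.22, limma adjusted p 0.163); with these 2 groups fitted alone it was called (adjusted p 0.00961). In GM, MUNC spliced cells were lower, with a difference of -1.88 (limma adjusted p 0.0367) with overlapping libraries, and the call was lost without control GM replicate 2 (-0.79), without MUNC spliced GM replicate 1 (-1.66) or 3 (-1.48), without the filter, and with those groups alone.

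Ifi35 (chromosome 11, 101448407 to 101458698, plus strand), a leucine-zipper protein that binds NMI, varied little between replicates. GM levels were 30.6, 39.6 and 27.8 FPM in control, 20.5, 23.4 and 19.3 FPM in MUNC spliced and 20.9, 21.6 and 19.5 FPM in MUNC genomic cells. DM3 levels were 159, 130.2 and 113 FPM in control, 81.4, 105 and 92.8 FPM in MUNC spliced and 26.4, 26.5 and 24.9 FPM in MUNC genomic cells. MUNC genomic DM3 stayed below every control GM library. In GM, MUNC spliced cells were lower than control without overlap, with a difference of -0.60 (limma adjusted p 0.00409), and the MUNC genomic difference was -0.62, also without overlap. The MUNC spliced line was also lower in DM3, with a difference of -0.51 (SE 0.14, limma adjusted p 0.00821). Its rise on differentiation was 2.01 in control and 2.09 in MUNC spliced cells, a difference of 0.08 (95% interval -0.34 to 0.51).

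Ifi27 (chromosome 12, 103434211 to 103440239, plus strand), a small hydrophobic protein of mitochondria and the nuclear envelope, had another pattern. Values in GM were 112, 87.5 and 84.5 FPM in control, 69.5, 96.6 and 43.9 FPM in MUNC spliced and 43.4, 48.2 and 28.2 FPM in MUNC genomic cells. Values in DM3 were 58.5, 63.7 and 57.2 FPM in control, 86.3, 73.8 and 71.8 FPM in MUNC spliced and 104, 96.8 and 104 FPM in MUNC genomic cells. The order of the lines was thus reversed between media: MUNC genomic had the lowest mean in GM and the highest in DM3, with no overlap with control in either. The MUNC genomic difference from control in GM was -1.25 (SE 0.22). Ifi27 rose in MUNC genomic cells by 1.36 (SE 0.22, limma adjusted p 0.000110), was not called in MUNC spliced cells (0.21, limma adjusted p 0.494), and was -0.64 in control cells, a call lost without control GM replicate 1 (-0.52) or control DM3 replicate 3 (-0.61). The lower MUNC spliced level in GM (-0.49, adjusted p 0.0979) was called with the replicate number as a block (limma adjusted p 0.0424).

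Its neighbour Ifi27l2a, which lies 1.93 kb from it and encodes a related protein, had its highest means in MUNC spliced and control DM3. Its values were 2.94, 3.43 and 1.24 FPM in control GM. In DM3 they were 199, 132 and 152 FPM in the control, 199, 292 and 241 FPM in the MUNC spliced and 6.91, 4.31 and 6.87 FPM in the MUNC genomic line. MUNC spliced DM3 was not called against control for this gene (0.60, limma adjusted p 0.0952), and its rise there exceeded that of control by 1.41 (SE 0.40, limma adjusted p 0.0283).

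Read by comparison, control differentiation called 8 members higher and 1 lower, where 58.2% of all genes tested were called in either direction; this comparison was among those that drew attention to the genes, and nothing is read from the count. MUNC spliced differentiation called 8 higher and 0 lower, against 17.2% of genes called higher. MUNC genomic differentiation called 4 higher (Ifit1, Ifi27, Ifitm3 and Bst2), against 26.3% called higher. The median difference of the members was 3.02 in MUNC spliced and 0.86 in MUNC genomic cells, beside -0.01 and 0.02 over all genes. The members were chosen with earlier results of these data known, so these counts and medians are a description. The MUNC genomic GM means of Ifit1, Ifit3, Ifi44 and Rsad2 were 0.692, 0.184, 0.357 and 0.0321 FPM. In DM3 they were 4.63, 2.85, 1.45 and 0.208 FPM. For these genes log2(FPM + 1) understates the rise, so the MUNC genomic median is understated too. The Ifit1 call in MUNC genomic cells (1.72, limma adjusted p 0.0251) was lost without GM replicate 3 (1.54), DM3 replicate 1 (1.65) or DM3 replicate 3 (1.57), and without the filter.

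Against control in GM, 6 members were called lower in MUNC spliced cells (all but Ifit2, Ifi27 and Ifitm3), against 17.3% of genes called lower. With 1 library left out the count ran from 4 to 7, and the Ifit3 call was lost in 4 and the Ifi44 call in 3 of 6 fits. For 3 members, Ifi35, Rsad2 and Bst2, all 3 MUNC spliced GM libraries were below all 3 control ones, as were those of 21.7% of genes. In DM3, 5 were called lower in MUNC spliced cells (Ifit2, Ifi35, Ifitm3, Rsad2 and Bst2) and 0 higher, against 21% of genes called lower. MUNC genomic DM3 against control called 8 lower and 1 higher, beside 40.3% of genes called in either direction, and MUNC genomic GM against control called 8 lower (all but Ifitm3), beside 14.5% of genes. Changes of MUNC genomic cells against control had drawn attention to the genes, and nothing is read from these 2 counts. The MUNC spliced counts share their control libraries with these comparisons, so they too are a description.

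The MUNC lines were also set against each other. MUNC genomic libraries were among those that had drawn attention to the genes, so nothing is read from the counts in either medium. In DM3, 8 members were called higher in MUNC spliced than in MUNC genomic cells, against 23.4% of genes, by 1.11 (Ifitm3) to 7.44 (Ifi44), and Ifi27 was not called (-0.39, limma adjusted p 0.168). In GM, 3 were called higher, against 19.9% of genes: Ifit1 (2.81, limma adjusted p 0.00176), Ifit3 (2.10, adjusted p 0.0404) and Ifi27 (0.76, adjusted p 0.0140). With the replicate number as a block, Ifit2 was called as well (1.04, limma adjusted p 0.0390). The Ifit3 and Ifi27 calls were lost without MUNC spliced GM replicate 2 (1.29 and 0.49) or MUNC genomic GM replicate 3 (2.04 and 0.53), and that of Ifit3 also without MUNC genomic GM replicate 1 (2.17) or 2 (2.08). By the interaction test, 1 member differed between MUNC spliced and control cells in its response to differentiation (Bst2), against 14.4% of genes called in either direction. Between MUNC genomic and control cells 7 differed, beside 8.81% of genes, again in a comparison that had drawn attention to them. Of these, edgeR on recovered reads did not call Ifi44 (-3.78, against -5.65 in limma) or Rsad2 (-1.82, against -4.11), and DESeq2 did not call Rsad2 (-1.69).

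**Figure D4:**
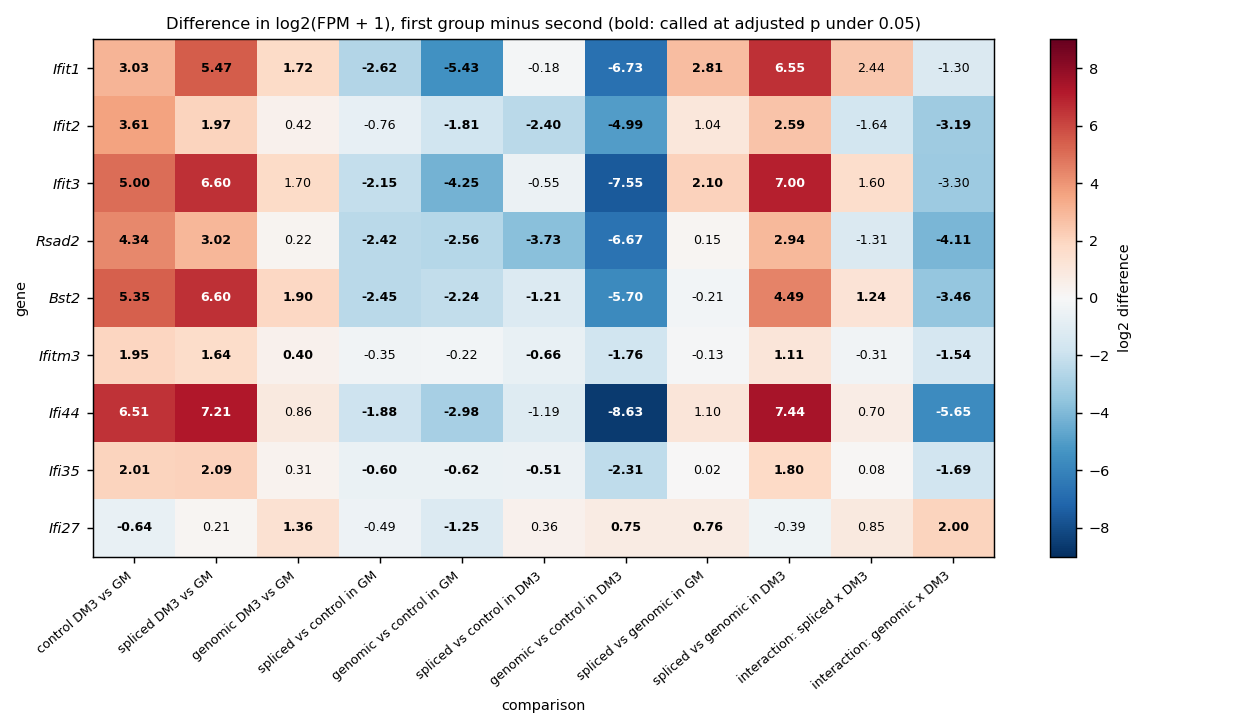
Cells give the difference in mean log2(FPM + 1) for each of the 9 genes (rows) in 11 comparisons (columns), first group minus second; colour follows the value and bold marks a call by limma at an adjusted p under 0.05. The MUNC genomic against control column in DM3 runs from -8.63 for Ifi44 to 0.75 for Ifi27, and the MUNC spliced against control column in DM3 holds 5 calls.

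Replicates of GM were uneven for the same genes. In control GM replicate 2 was the highest library for 8 of the 9 members and replicate 3 the lowest for all 9, and the ratio of highest to lowest was 19.3 for Ifit3, 16.2 for Ifi44, 6.85 for Rsad2, 5.66 for Ifit2 and 5.56 for Ifit1. It was 2.21 for Bst2 and at most 1.43 for Ifi35, Ifi27 and Ifitm3. Replicate 2 was also the highest for 8 members in MUNC spliced GM and 7 in MUNC genomic GM, whereas over all tested genes it was the highest for 33.5%, 35.0% and 34.2% in these groups. Without control GM replicate 2, the control rise on differentiation went from 3.03 to 3.67 for Ifit1, from 3.61 to 4.29 for Ifit2, from 5.0 to 6.11 for Ifit3, from 6.51 to 7.60 for Ifi44 and from 4.34 to 4.98 for Rsad2. The MUNC genomic difference from control in GM shrank without that library, to -4.78 for Ifit1, -1.13 for Ifit2, -3.14 for Ifit3, -1.89 for Ifi44 and -1.92 for Rsad2. Leaving out control GM replicate 3 moved Ifit3 and Ifi44 the other way, to 4.09 and 5.79 in control differentiation and to -5.16 and -3.70 in MUNC genomic against control GM. Leaving out MUNC spliced GM replicate 2 moved the Ifit1 rise in MUNC spliced cells from 5.47 to 6.27 and the Ifit3 rise from 6.60 to 7.41. What set replicate 2 apart was not tested. In MUNC spliced DM3, replicate 2 was the highest for 8 of 9 members and replicate 1 the lowest for 8 of 9.

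The upstream pathway was read from lists chosen with earlier results known. Of 13 relatives of the members, 10 were detected well enough to be tested. On differentiation, 10 were called higher in control, 7 higher and 1 lower in MUNC spliced, and 4 higher in MUNC genomic cells. Over all genes tested, 29.6%, 17.2% and 26.3% were called higher and 28.6%, 18.4% and 25.1% lower in these 3 comparisons. Ifit3b followed Ifit3, at 12.1 ± 14.8 FPM in control GM, 193 ± 69.0 in control DM3, 129.6 ± 54.6 in MUNC spliced DM3 and 0.456 ± 0.154 in MUNC genomic DM3 (SD, n = 3 each). How reads shared by these near-identical copies were counted is not given in the sources used here. The levels of both, and the ratios with Ifit3, may be affected. The relative called lower was Ifitm1, a cell-surface paralogue of Ifitm3. It measured 24.7, 33.0 and 16.7 FPM in MUNC spliced GM and 8.11, 16.3 and 13.4 FPM in MUNC spliced DM3 (-0.92, limma adjusted p 0.0270), against 18.1, 16.9 and 12.4 FPM in control GM and 53.1, 78.5 and 97.9 FPM in control DM3. The difference between these responses was -3.10 (SE 0.43, limma adjusted p 0.000524). Ifitm2, the third paralogue, was lower than control in MUNC spliced DM3, with a difference of -0.67 (limma adjusted p 0.000991), close in size to Ifitm3, and its response differed by -0.92 (limma adjusted p 0.00687).

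Of 13 signalling genes, all tested, 12 were called higher in control DM3 than GM, 10 in MUNC spliced and 8 in MUNC genomic cells, with 0 lower in each, beside 29.6%, 17.2% and 26.3% of all genes called higher. The receptor genes had reads in every group: Ifnar1 means ran from 65.2 to 95.4 FPM and Ifnar2 means from 16.2 to 30.9 FPM. In MUNC genomic DM3 against control they differed by 0.14 (95% interval -0.06 to 0.34) and -0.14 (-0.37 to 0.10), neither of them called. In that comparison 7 of the 13 signalling genes were called in either direction, all of them lower, beside 40.3% of all genes called in either direction. Of the transcription factors below the receptor, Irf1 differed by -0.03 and was not called, and Irf2 differed by -0.60. Stat2 stood at 521 ± 9.0 FPM in control, 383 ± 94.0 FPM in MUNC spliced and 58.8 ± 10.4 FPM in MUNC genomic DM3, and Irf9, a DNA-binding factor of the response, at 142 ± 4.52, 99.8 ± 14.3 and 18.7 ± 3.05 FPM in the same order (SD, n = 3 each).

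Irf7, the factor that amplifies interferon production, measured 626, 583 and 510.3 FPM in the control DM3 libraries, 115, 222 and 193 FPM in MUNC spliced DM3 and 4.55, 4.91 and 6.79 FPM in MUNC genomic DM3. MUNC spliced DM3 was lower than control, with a difference of -1.74 (SE 0.54, limma adjusted p 0.0158). Usp18, which removes ISG15 and dampens the receptor, stood at 278 ± 114, 135 ± 25.2 and 1.48 ± 0.173 FPM, and Isg15, the ubiquitin-like modifier, at 456 ± 114, 300.1 ± 53.4 and 7.05 ± 1.02 FPM in control, MUNC spliced and MUNC genomic DM3 (SD, n = 3 each). For both, MUNC spliced DM3 was not called against control (Usp18 -0.97, limma adjusted p 0.183; Isg15 -0.59, adjusted p 0.285), as for Ifit1 and Ifit3.

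**Figure D5:**
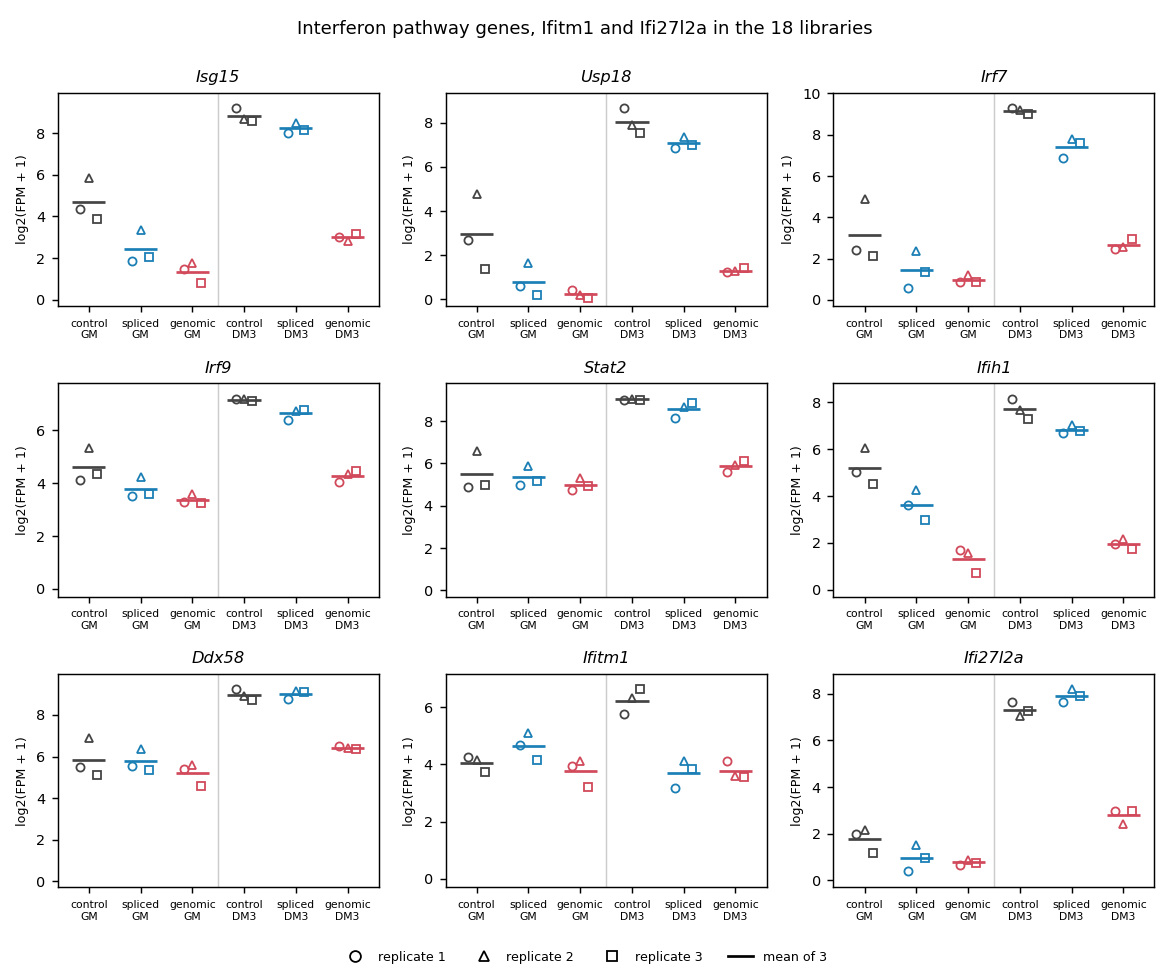
Panels show 7 genes of interferon signalling and RNA sensing, with Ifitm1 and Ifi27l2a; the y axis is log2(FPM + 1), points are the 18 libraries by group with the replicate as symbol, and bars are means of 3. MUNC genomic DM3 lies below control DM3 in every panel, and Ddx58 overlaps between control and MUNC spliced DM3.

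Of 11 genes that sense viral nucleic acid or relay the signal, 7 were called higher and 1 lower on control differentiation, 4 and 2 in MUNC spliced, and 3 and 2 in MUNC genomic cells. The MUNC genomic share of higher calls was near that of all genes tested (26.3%), and 29.6% and 17.2% of all genes were called higher in the other two. Ddx58, which encodes the RNA sensor RIG-I, stood at 64.3 ± 45.0, 56.1 ± 23.1 and 37.1 ± 12.8 FPM in control, MUNC spliced and MUNC genomic GM and at 498 ± 92.0, 517 ± 68.8 and 85.3 ± 4.45 FPM in DM3 (SD, n = 3 each). Of the 11 genes, 3 were called lower in MUNC genomic GM against control (Ifih1, Dhx58 and Mb21d1), 3 higher (Tbk1, Ikbke and Irf3) and 5 not at all, beside 14.5% of all genes called lower and 12.2% higher. Ifih1, which encodes MDA5, had the largest of these differences, -3.87 (SE 0.37), from 31.2, 66.3 and 21.9 FPM in control GM to 2.28, 1.96 and 0.630 FPM in MUNC genomic GM. The higher calls were smaller, at 0.24 for Tbk1, 0.67 for Ikbke and 0.28 for Irf3, and Ddx58 differed by -0.63 and was not called.

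Interferon transcripts themselves were low, at most 0.645 FPM for any gene in any library. None of the 21 interferon genes listed reached the filter, and 10 of them had 0 reads in all 18 libraries. In GM the sum over all 21 was 0.137 to 0.476 FPM in control, 0.0902 to 0.454 FPM in MUNC spliced and 0.0210 to 0.0429 FPM in MUNC genomic libraries. In DM3 it was 0.138 to 0.368 FPM, 0.560 to 0.911 FPM and 0 to 0.0390 FPM in the same order, without overlap between lines. A gene other than Ifnb1 reached 0.645 FPM in MUNC spliced DM3, and 1 other than Ifnb1 reached 0.400 FPM in control GM. A sum over the list can therefore rest largely on 1 gene, and its differences between lines are not read as differences of interferons in general. Ifnb1, the interferon most often made by non-immune cells, had 3, 1 and 0 reads in control GM, 9, 5 and 10 in control DM3, 3, 5 and 0 in MUNC spliced GM and 7, 9 and 10 in MUNC spliced DM3. MUNC genomic libraries held 0, 2 and 0 Ifnb1 reads in GM and 0, 0 and 0 in DM3. A count of 0 in a library allows up to 3 reads, which is 0.0429 to 0.0757 FPM over the 18 libraries. These counts cover counting error only and were not tested.

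The 8 other genes whose log2(FPM + 1) ran most closely with the mean of the members, each scaled to its own mean and SD, were Isg15 and Igtp (both r = 0.991), Xaf1 (0.990), Irgm2 and Ube2l6 (both 0.989), Usp18 (0.986), Sp100 (0.984) and Oasl2 (0.981). They were ranked among 13860 genes over 18 libraries, which share groups and depth.

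The authors' deposited tables of comparisons, made on the same libraries, carried the same sign as the values above for all 9 members in each of the 5 comparisons they cover. In the authors' deposited table for MUNC spliced against control in GM, 3 members were called lower (Ifi35, Rsad2 and Bst2), the ones whose libraries did not overlap. In the authors' deposited table for MUNC spliced against control in DM3, 6 were called lower and 1 higher, with Ifit1 and Ifit3 not called.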

How the data were processed

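Poly(A) RNA of 18 C2C12 libraries was sequenced, and the sample titles gave the groups; the label naming a sample myoblasts or myotubes contradicts its title in 9 cases and was set aside. Reads were aligned with STAR, counted with HTSeq and analysed with DESeq2 on mm10, per the submitters' processing notes; versions and annotation are not given in the sources used here. A table deposited by the authors holds normalized signal (FPM) for 35275 genes, which a label calls FPKM. Within each library every deposited signal value was a whole multiple of 1 smallest step (100% within 0.05 reads), so read counts could be recovered. The authors also deposited comparison tables with log2 fold changes, p-values and a score (the test statistic), used only where named.

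Members and gene lists were chosen with earlier results of these data known. All 18 libraries entered 1 fit with limma 3.58.1 in R 4.3.3 (trend; 12 residual degrees of freedom) on log2(FPM + 1) for the 13869 genes that reached 0.5 FPM in 3 or more libraries, with Benjamini-Hochberg adjustment over all of them in each of 11 comparisons. The text names the 9 members, relatives and pathway genes from written lists, and the 8 genes most like the members. An item of the signalling list is not reported here and was left out of that list's counts. Reads recovered from the table were also tested with edgeR 4.0.16 and DESeq2 1.42.0, rounded to whole numbers. Replicates are biological per the labels; p-values measure the spread between these cultures. The scripts were tested on simulated data. The limma fit held group means only, without a replicate block, so its SEs, intervals and adjusted p-values are unpaired. A fit with the replicate number as a block was an alternative, used only where named. The rule for pairing asked that all 3 same-numbered pairs correlate above 0.1 in their deviations from the group means. It held in 6 comparisons: control DM3 against GM (0.203 to 0.411), MUNC spliced against control in GM (0.495 to 0.711) and in DM3 (0.171 to 0.340), MUNC genomic against control in GM (0.494 to 0.726) and in DM3 (0.274 to 0.448), and MUNC spliced against MUNC genomic in GM (0.456 to 0.727). Gene positions are from GENCODE M21 (GRCm38), which held 97.8% of the table's identifiers. Promoter windows are from RefSeq. Protein sequences were not used here.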

Additional observations from a re-analysis of the deposited data

Results flagged for a closer look

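The response to differentiation differed from that of control cells, by the interaction test, for 8 gene and line pairs. In MUNC spliced cells Bst2 rose by 1.24 more on the log2 scale than in control cells. In MUNC genomic cells the change on differentiation was smaller than in control cells for Ifit2 (-3.19), Ifi44 (-5.65), Ifi35 (-1.69), Ifitm3 (-1.54), Rsad2 (-4.11) and Bst2 (-3.46), and it was higher for Ifi27 (2.0). The MUNC genomic values are a description, since that comparison had drawn attention to the genes.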

How the results depend on the processing

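Over the 99 combinations of member and comparison, the 8 alternatives that kept all libraries gave 749 results with the same direction and side of the threshold, 17 that lost a call, 21 that gained one and 5 of opposite sign; the fits that left out 1 library gave 651, 32, 9 and 10. Members called in MUNC genomic differentiation fell from 4 to 2 with no filter on low values (2 to 4 with 1 library left out, 2 without GM replicate 3, DM3 replicate 1 or DM3 replicate 3). In MUNC spliced against MUNC genomic GM the count was 1 to 3 with 1 library left out, and 1 without MUNC spliced GM replicate 2 or MUNC genomic GM replicate 3. In the MUNC spliced interaction it was 1, and 0 with no filter, with FPM rescaled to equal sums and with the compared groups alone, 4 with the replicate block, and 0 to 3 with 1 library left out. Results of opposite sign, none of them called in limma, were Ifi35 in MUNC spliced against MUNC genomic GM (-0.018 by edgeR, -0.014 by DESeq2, -0.053 to 0.082 with 1 library left out) and Rsad2 in the MUNC spliced interaction (0.63 with a pseudocount of 0.1, 1.63 by edgeR, 1.67 by DESeq2, against -1.31). With 1 library left out, signs also varied for Ifi27 in MUNC spliced differentiation (-0.088 to 0.47), Ifit1 in MUNC spliced against control DM3 (-0.49 to 0.20), Ifitm3 in MUNC spliced against MUNC genomic GM (-0.30 to 0.0011), and in the MUNC spliced interaction Ifi44 (-0.40 to 1.42) and Ifi35 (-0.060 to 0.21). The cause was not tested.

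Replicate numbers did not meet the rule for pairing in the other 5 comparisons. There the replicate block moved the members called from 4 to 6 in MUNC genomic differentiation, from 1 to 4 in the MUNC spliced interaction and from 7 to 8 in the MUNC genomic one, and left 8 in MUNC spliced differentiation and in MUNC spliced against MUNC genomic DM3. In the comparisons that met the rule, the block changed the Ifi27 and Ifit2 calls given in the report and no other member's call. Depth limits Rsad2 in MUNC GM libraries (0 to 18 reads) and the interferon genes. Protein identity among family members was not run.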
